A study of Homo sapiens with 6 samples.

Results

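RAB GTPases were followed at the transcript level in HepG2, a long-established line of human liver carcinoma cells. The family was taken as the protein-coding genes in the deposited table of log2 FPKM whose symbol is RAB, a number and at most a letter and a digit. This gave 51 genes, of 18404 genes in that table and 60504 in the deposited count table. The cells were grown in DMEM in 6-well plates and kept for 48 h in 10 µM oridonin, a diterpenoid made by the plant Isodon rubescens, or in 0.1% DMSO as the vehicle control. Each treatment had 3 libraries, named DMSO 1 to 3 and oridonin 1 to 3 here. How much DMSO the oridonin wells held is not in the labels, which name 1 dose and 1 time, and do not say whether the 3 libraries came from separate cultures. The p-values therefore measure the spread between these libraries, which may be technical.

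RAB proteins are small GTPases that act as switches on membranes. Loaded with GTP by an exchange factor, a RAB sits on its own membrane compartment through prenyl groups at its C-terminus and recruits effectors such as tethers, motor adaptors and vesicle-docking proteins. A GTPase-activating protein (GAP) turns it off, and it is then returned through the cytosol. In hepatocytes these switches sort the traffic of secreted plasma proteins, endocytosed receptors and membrane proteins of the bile canaliculus.

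Total counts per library ran from 22250202 to 30739574. All 10 hepatocyte and HepG2 markers examined were detected well enough to test, with summed levels of 27199 to 30451 CPM (counts scaled to library size) in the controls and 16357 to 18499 CPM in oridonin. Of 8 neuronal or endocrine markers 3 had no count in any library, and their sum was 1.09 to 1.42 CPM in DMSO and 1.23 to 1.82 CPM in oridonin. Genes listed as markers of other cell types moved with the treatment, in both directions. The sum of 10 plasma cell genes, mostly immunoglobulin constant regions, was 0.365 to 18.7 CPM in DMSO and 26.0 to 84.2 CPM in oridonin, and that of 10 gut epithelial genes was 0.592 to 5.08 CPM against 10.8 to 19.3 CPM. In such bulk samples fewer cells of a type and less RNA per cell cannot be told apart. No gene of either list was at 0 in all libraries. DMSO 1 was lowest and oridonin 2 and 3 highest for the sum of the plasma cell genes, though not for each gene. The part of such RNA in the results was not tested. The 4 fibroblast genes summed to 0.273 to 2.41 CPM in DMSO and 2.29 to 4.25 CPM in oridonin. The 6 immune genes fell from 679 to 712 CPM to 420 to 451 CPM, nearly all of it LYZ (mean 694 and 433 CPM). CD14 also had a lower mean in oridonin, while PTPRC, CD79B and CD3E had higher means. The 3 endothelial genes summed to 5.59 to 7.52 CPM in DMSO and 7.87 to 8.70 CPM in oridonin, with CDH5 lower (mean 0.468 and 0.132 CPM).

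Levels of different RAB genes were compared in FPKM, which divides the reads of a gene by its length as well as by library size. In DMSO the most abundant were RAB7A, the organiser of late endosomes and lysosomes, RAB1A, which acts between the ER and the Golgi, RAB10, which acts in transport to the plasma membrane, RAB6A, which acts at the Golgi, and RAB42, which stood in place 7 in oridonin. In DMSO 1 to 3 the FPKM of RAB7A was 109, 114 and 117, and in oridonin 1 to 3 it was 133, 136 and 133. RAB1A stood at 103, 105 and 99.7 FPKM in DMSO and at 108, 115 and 112 FPKM in oridonin. Both kept the first 2 places after treatment, and the groups did not overlap for either. In DMSO 17 members had a mean of at least 10 FPKM and 11 a mean under 1 FPKM, and the median member was at 6.02 FPKM, against 7.27 FPKM in oridonin. Summed over the 51 genes, FPKM was 750, 777 and 784 in DMSO and 793, 801 and 811 in oridonin.

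Of the 51 genes, 48 passed the filter on low counts and were tested. RAB33A, RAB40A and RAB9B did not pass, with at most 9 counts in any library. With oridonin 18 members rose and 8 fell, and 22 were not called. Calls required an adjusted p under 0.05 (Benjamini-Hochberg over all 15116 tested genes) from edgeR's quasi-likelihood test. The calls cover 54.2% of the tested members against 41.9% of all tested genes, with 37.5% called higher against 20.6% and 16.7% called lower against 21.3%. Most differences were small. The median log2 fold change of the members was 0.04, against 0.01 over all tested genes, and the median size of the change was 0.20 against 0.22. At a change of at least 1.5-fold, 5 members were higher (RAB7B, RAB3B, RAB31, RAB25 and RAB6B), where 6.2% of all tested genes were, and 2 were lower (RAB26 and RAB42), where 5.48% were. RAB7B and RAB25 had few counts in DMSO and passed the filter only through their oridonin libraries. The filter thus favoured a higher outcome for both, which limits the counts of higher calls that include them. The 3 libraries of one treatment lay apart from the 3 of the other in CPM for 32 members, a pattern seen in 51.6% of all tested genes.

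The smaller calls depended on single libraries. Without DMSO 1, the shallowest library, 10 members were called higher in place of 18, and in the setting without oridonin 2 and 3 the counts were 11 higher and 5 lower. Scaling to total counts instead of the trimmed mean of M values moved the share of higher calls among all called genes from 49.2% to 65.5%, and 22 members were then higher and 7 lower. RAB7B, RAB3B, RAB31, RAB10, RAB22A, RAB5C, RAB18 and RAB7A stayed higher and RAB26, RAB42, RAB6A, RAB4A and RAB17 stayed lower in all 13 other settings.

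**Figure D1:**
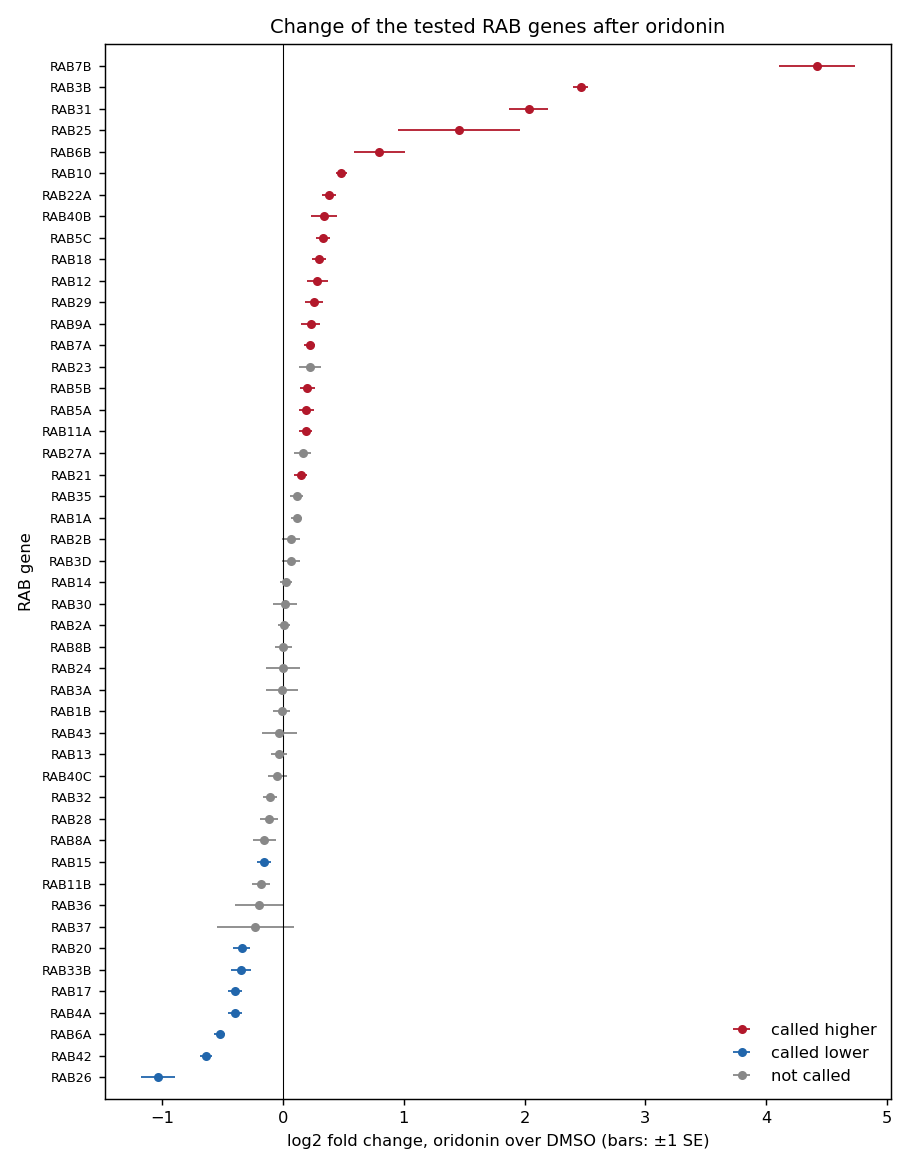
Log2 fold change of each tested RAB gene, oridonin over DMSO, with bars of 1 standard error from the edgeR fit. RAB7B, RAB3B and RAB31 lie above 2, RAB26 lies below -1, and most of the other genes lie close to 0.

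**Figure D2:**
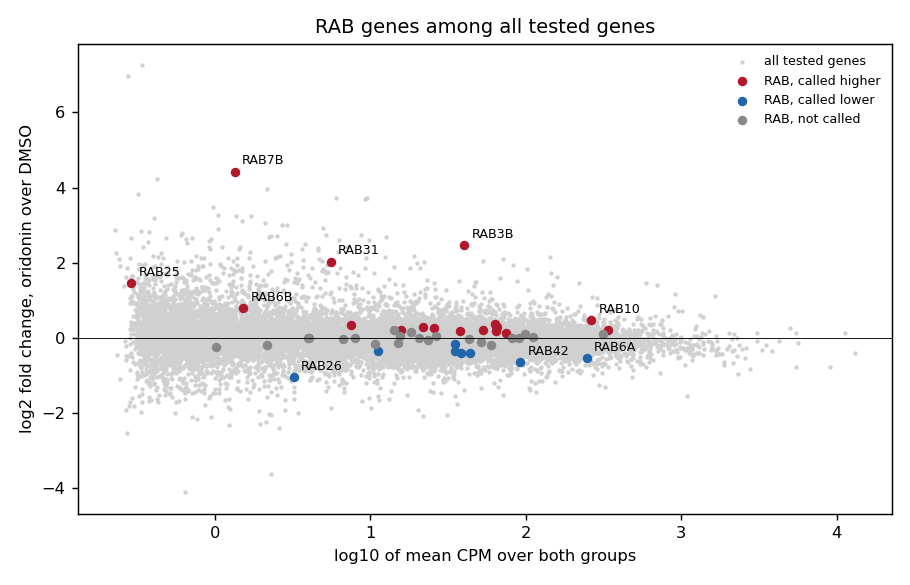
Log2 fold change against log10 of the mean CPM over both groups for all tested genes (small grey points) and for the tested RAB genes (large points, coloured by call). RAB3B stands out at its level, while the abundant members RAB10 and RAB6A sit at 0.48 and -0.53.

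Among the RABs of regulated exocytosis and secretory vesicles, RAB3B rose 5.51-fold, from 12.3 ± 0.424 to 67.9 ± 1.56 CPM (SD, n = 3). RAB3 proteins sit on secretory vesicles and act when these dock at the plasma membrane, and RAB3B is the form best known from endocrine and epithelial cells. RAB3B (ENSG00000169213) lies on the minus strand at chr1:51907956-51990764 of hg38. Its level was 12.7, 11.9 and 12.4 CPM in DMSO 1 to 3 and 67.4, 66.6 and 69.6 CPM in oridonin 1 to 3. Every oridonin library was thus far above every DMSO library. The log2 fold change was 2.46 ± 0.06 (SE), with an adjusted p of 7.63e-14, and it was 2.45 without oridonin 2 and 3. In FPKM RAB3B moved from place 41 to place 29 of the 51 members.

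Its paralogs RAB3A and RAB3D did not pass the test. RAB3A, the main RAB3 of neurons, stood at 3.69, 3.93 and 4.31 CPM in DMSO and at 4.11, 3.57 and 4.22 CPM in oridonin (log2 fold change -0.01 ± 0.13, adjusted p = 0.962). It overlaps MPV17L2, a more abundant gene on the opposite strand, and the strand setting of the counting is not given in the sources used here, so its level is uncertain. RAB3D, the form of exocrine granules, stood at 14.9, 14.9 and 15.4 CPM in DMSO and at 15.7, 15.1 and 16.4 CPM in oridonin (0.06 ± 0.08, adjusted p = 0.533). For both the groups overlapped. RAB3C had no count in any library.

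The makeup of the RAB3 pool changed accordingly. RAB3B made up 15.4, 14.4 and 14.1% of the summed RAB3 FPKM in DMSO and 47.4, 48.9 and 47.2% in oridonin. RAB3D went from 52.1 ± 0.867% to 32.4 ± 0.183% (SD, n = 3), and RAB3A from 33.3 ± 1.53% to 19.7 ± 1.03%. These shares do not overlap between treatments, and they were not tested apart from the genes themselves. Each share also rests on the level of RAB3A, which is uncertain.

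**Figure D3:**
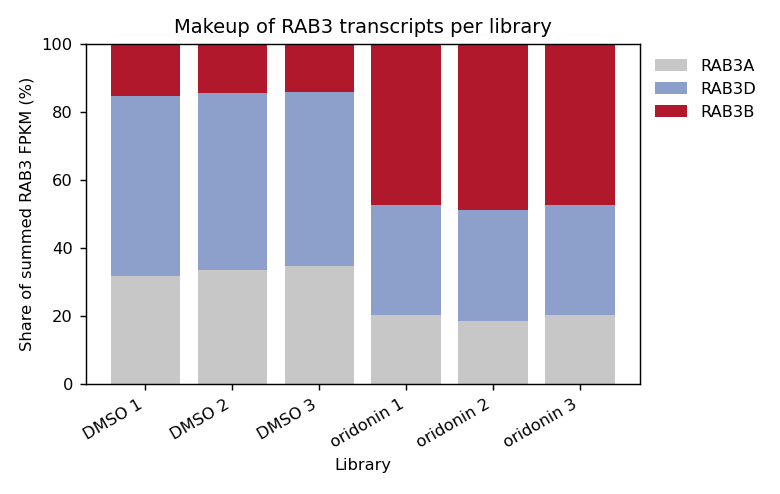
Share of RAB3A, RAB3D and RAB3B in the summed RAB3 FPKM of each library, in percent. RAB3B takes 14.1 to 15.4% in the 3 DMSO libraries and 47.2 to 48.9% in the 3 oridonin libraries. The level of RAB3A, part of every sum, is uncertain because it overlaps MPV17L2.

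RAB26, which acts in the maturation of secretory granules, moved the other way. Its level was 4.33, 4.32 and 4.35 CPM in DMSO and 1.98, 2.14 and 2.20 CPM in oridonin, so that all treated libraries lay under all controls. The log2 fold change was -1.04 ± 0.14, a drop to 0.486 of the control level (adjusted p = 1.5e-05). RAB27A, which docks lysosome-related organelles and secretory granules, stood at 17.5, 17.8 and 16.5 CPM in DMSO and at 19.3, 18.9 and 19.8 CPM in oridonin. Its groups did not overlap, yet with a log2 fold change of 0.16 ± 0.07 the gene was not called (adjusted p = 0.0783). RAB27B had 5 counts over all 6 libraries, and RAB37, at about 1 CPM, was not called.

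The stretch before the start of 3 members is shown because RAB3B and RAB5B were the members with a match to the AP-1 motif TGANTCA and RAB7B had the highest fold change without one. The sequences are from RefSeq on GRCh38.p14, printed 5′ to 3′ in the direction of transcription and ending before the gene start in the deposited annotation. RAB3B covers chr1:51990765-51990950 on the minus strand, RAB5B chr12:55973699-55973912 on the plus strand and RAB7B chr1:206003462-206003645 on the minus strand. Capitals mark matches to TGANTCA and, in RAB5B, to the antioxidant response element core TGACNNNGC, read on its reverse strand.
RAB3B: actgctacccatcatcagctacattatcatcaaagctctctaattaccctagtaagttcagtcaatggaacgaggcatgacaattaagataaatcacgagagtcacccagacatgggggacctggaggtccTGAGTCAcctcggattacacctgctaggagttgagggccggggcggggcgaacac
RAB5B: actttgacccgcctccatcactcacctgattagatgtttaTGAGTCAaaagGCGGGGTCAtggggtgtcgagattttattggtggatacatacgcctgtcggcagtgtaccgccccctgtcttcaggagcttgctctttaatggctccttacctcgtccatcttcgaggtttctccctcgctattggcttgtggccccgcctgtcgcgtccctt
RAB7B: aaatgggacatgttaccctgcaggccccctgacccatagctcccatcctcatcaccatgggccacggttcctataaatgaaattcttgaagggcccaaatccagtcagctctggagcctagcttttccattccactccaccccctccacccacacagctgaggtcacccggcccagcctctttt

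In 250 bases before the RefSeq start, 41 of the 51 members had a window. TGANTCA, read on both strands, was in 2 of the 41 and in 6.57% of all 35116 promoter windows of this length. Both of these members were called higher, but 17 of the 41 were called higher and only 4 lower. The match in RAB3B lies 119 bases before the RefSeq start. TGACNNNGC was in 9 of the 41 members and in 10.9% of all windows, and the E-box CACGTG in 5 of the 41 and in 6.34%. These E-boxes belong to RAB21, RAB24, RAB31, RAB4A and RAB5A, and the one of RAB31 lies 60 bases before its start. Among them RAB4A was called lower and RAB24 was not called. A stretch can match more than 1 of the motifs, and the median GC content was 65.6% for the member windows and 58% for all. These are letter matches and not measured binding sites.

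**Figure D4:**
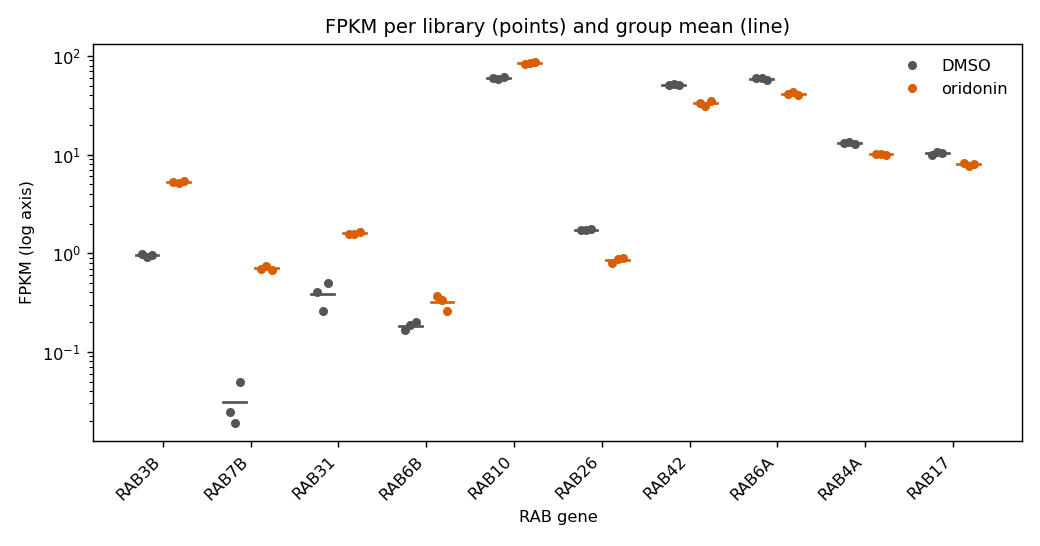
FPKM of 10 called RAB genes in each library (points, log axis) with the group mean (line). RAB3B, RAB7B and RAB31 start at or under 1 FPKM in DMSO and are higher in every oridonin library, while RAB26, RAB42, RAB6A, RAB4A and RAB17 are lower in every oridonin library.

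Of 8 members placed at late endosomes, lysosomes and related organelles, 7 were tested, 4 rose and none was called lower, and the median of their log2 fold changes was 0.22. Over all tested genes 20.6% were called higher and 21.3% lower, shares that stand beside the counts of the other compartments and lists too. Among all tested members RAB7B had the highest fold change. It entered the test only through its oridonin libraries, so the filter favoured its place among the 4 that rose. It acts in transport from late endosomes to the trans-Golgi network and was close to absent from untreated cells. RAB7B (ENSG00000276600, minus strand, chr1:205976740-206003461) had 2, 2 and 5 counts in DMSO 1 to 3 and 81, 83 and 70 counts in oridonin 1 to 3. Its level per length rose from 0.0310 ± 0.0164 to 0.701 ± 0.0316 FPKM (SD, n = 3). The ratio of the summed scaled counts was 22.3, with a 95% counting interval of 11.5 to 49.3 that covers counting error only, and the fitted log2 fold change was 4.42 ± 0.32 (adjusted p = 1.07e-08). Without oridonin 2 and 3 the log2 fold change was 4.40.

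Even so, RAB7B stayed a small part of the RAB7 transcripts, at 0.0272 ± 0.0136% of the summed RAB7 FPKM in DMSO and 0.521 ± 0.0151% in oridonin (SD, n = 3). RAB7A, the rest, rose from 301, 311 and 318 CPM to 362, 367 and 356 CPM, without overlap (log2 fold change 0.22 ± 0.05, adjusted p = 0.000849). RAB29, linked to lysosomes and the Golgi through the kinase LRRK2, went from 23.5 ± 1.73 to 28.1 ± 1.82 CPM (SD, n = 3). RAB9A, which acts in the return of mannose 6-phosphate receptors, went from 14.5 ± 1.23 to 17.1 ± 0.524 CPM. Both were called higher, at log2 fold changes of 0.25 ± 0.07 and 0.23 ± 0.08, but RAB29 lost its call without oridonin 2, and RAB9A without DMSO 1 and without each oridonin library in turn. Without oridonin 2 the group thus had 2 members higher in place of 4. RAB24, RAB28 and RAB32 were not called.

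Neighbours were looked at for the called members that changed at least 1.5-fold, RAB7B among them. Within 250 kb of RAB7B, 8 genes were tested, of which 4 were called higher, RAB29 among them, and 3 lower. The nearest, CTSE, encodes the protease cathepsin E, lies on the same strand and ends 5803 bases upstream of the start of RAB7B. It rose from 1.48 ± 0.273 to 3.51 ± 0.305 CPM (SD, n = 3; change on the log2 scale 1.26 ± 0.18). Around RAB3B 6 neighbours were tested, with 1 higher and 2 lower, and around RAB31 there were 4, with 2 higher. RAB25 had 19, with 5 higher and 4 lower, and RAB26 had 25, with 3 higher and 11 lower. RAB42 had 10 and RAB6B 6, each with 0 higher and 4 lower. These counts stand beside 41.9% called over all tested genes, and nothing is read from them.

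All 7 early endosome members were called, 6 higher and 1 lower, and for each of them the libraries of the treatments lay apart. Over all tested genes 20.6% were called higher, 21.3% lower and 51.6% lay apart. RAB31, which carries cargo between the trans-Golgi network and endosomes, had the largest change of these. It was measured at 2.32, 1.48 and 2.78 CPM in DMSO and at 8.82, 8.80 and 9.15 CPM in oridonin. Every treated library was well above every control, and the log2 fold change was 2.03 ± 0.16 (adjusted p = 3.18e-08), or 2.01 without oridonin 2 and 3. RAB31 (ENSG00000168461) lies on the plus strand at chr18:9708165-9862551.

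RAB22A, which governs recycling from early endosomes, went from 55.1, 51.1 and 58.0 CPM in DMSO to 72.5, 71.8 and 69.1 CPM in oridonin (log2 fold change 0.38 ± 0.06, adjusted p = 4.99e-05). The 3 RAB5 paralogs, which drive fusion of early endosomes, rose by small amounts, RAB5C the most. RAB5C stood at 54.5, 58.9 and 56.9 CPM in DMSO and at 71.7, 67.5 and 74.9 CPM in oridonin (0.33 ± 0.06, adjusted p = 0.000176). RAB5B and RAB5A changed by 0.20 ± 0.06 and 0.19 ± 0.06 on the log2 scale, and RAB5C made up 54.9 ± 0.391% of the RAB5 FPKM in DMSO and 57.2 ± 1.32% in oridonin (SD, n = 3).

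RAB21, which binds integrins, had the smallest rise, from 71.1 ± 1.54 to 78.7 ± 2.21 CPM (SD, n = 3; change on the log2 scale 0.14 ± 0.05). RAB20, found on early endosomes and phagosomes, was the member called lower, at 36.1, 41.4 and 39.7 CPM in DMSO and 32.6, 28.8 and 31.1 CPM in oridonin (-0.35 ± 0.07, adjusted p = 0.000674). Without DMSO 1, RAB5A, RAB5B and RAB21 lost their calls, leaving 3 of 7 higher and 1 lower. RAB5A also lost its call without oridonin 1, and RAB21 lost its call in 7 of the 13 other settings, among them those without DMSO 2, oridonin 2 or oridonin 3. Without oridonin 2 and 3 there were again 3 higher, and RAB20 was no longer called (adjusted p = 0.0695).

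Of the 6 recycling endosome members 1 rose and 2 fell. RAB4A, which returns receptors quickly to the surface, fell from 44.2, 44.7 and 42.3 CPM to 33.6, 33.4 and 32.4 CPM, with no overlap (log2 fold change -0.40 ± 0.06, adjusted p = 3.13e-05). RAB11A, of the slow recycling route, rose from 60.4 ± 2.64 to 68.7 ± 2.57 CPM (SD, n = 3; change on the log2 scale 0.19 ± 0.06), a call that was lost without DMSO 1 or oridonin 1. Its paralog RAB11B was not called, with 59.2, 58.6 and 71.6 CPM in DMSO and 51.6, 57.3 and 57.8 CPM in oridonin (-0.19 ± 0.08, adjusted p = 0.0622). In 4 of 13 other settings RAB11B was called lower. RAB11A accordingly held 29.5 ± 2.60% of the RAB11 FPKM in DMSO and 35.0 ± 2.30% in oridonin. RAB15 stood at 38.3, 35.2 and 38.0 CPM in DMSO and at 33.2, 33.3 and 33.4 CPM in oridonin, and its call as lower (-0.16 ± 0.06, adjusted p = 0.0452) was lost in 10 of 13 other settings. RAB14 and RAB35 were not called.

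Of the 8 members of post-Golgi and polarised transport 3 rose and 1 fell. RAB10 combined a high level with a clear rise, from 220, 216 and 224 CPM in DMSO to 302, 308 and 311 CPM in oridonin. That is 60.1 ± 1.51 against 85.0 ± 1.77 FPKM (SD, n = 3), a log2 fold change of 0.48 ± 0.04 (adjusted p = 2.31e-07). RAB12 was placed in this group although it also steers the transferrin receptor towards degradation. It stood at 17.0, 21.6 and 20.6 CPM in DMSO and at 26.3, 22.8 and 23.1 CPM in oridonin (0.28 ± 0.09, adjusted p = 0.0170). Its call was lost without DMSO 1 or oridonin 1, and without DMSO 1 the group had 1 member higher in place of 3. RAB17, a RAB of polarised epithelia, fell from 48.1, 51.2 and 50.2 CPM to 39.6, 36.4 and 37.8 CPM (-0.40 ± 0.06, adjusted p = 3.99e-05).

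RAB25, an epithelial relative of RAB11, was called higher on few reads and is described although its level is under 1 CPM. It passed the filter only through its oridonin libraries. It had 1, 3 and 8 counts in DMSO and 14, 11 and 14 counts in oridonin, a ratio of 2.78 with a 95% counting interval of 1.43 to 5.84. Like the sum of the gut epithelial list they were lowest in DMSO 1, and the part of other cells in this result was not tested. The call (adjusted p = 0.0275) was lost in 7 of 13 other settings, among them those without DMSO 1, DMSO 2, oridonin 1 and oridonin 3. RAB8A, RAB8B, RAB13 and RAB23 were not called.

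Of the 13 members at the ER, the Golgi and lipid droplets 12 were tested, 2 rose and 3 fell. RAB6A, which guides traffic back through the Golgi, fell from 298, 294 and 280 CPM to 201, 208 and 195 CPM (log2 fold change -0.53 ± 0.05, adjusted p = 1.68e-07). RAB42 fell from 112, 115 and 110 CPM to 73.0, 67.8 and 75.4 CPM (-0.64 ± 0.05, adjusted p = 5.93e-08). For both genes every treated library was under every control. They stood at 58.9 and 51.2 FPKM in DMSO and at 41.4 and 33.2 FPKM in oridonin. RAB33B, a Golgi RAB that binds the autophagy protein ATG16L1, fell from 12.4, 12.5 and 12.5 CPM to 10.0, 10.0 and 9.25 CPM (-0.35 ± 0.08, adjusted p = 0.00303), and lost the call only in the setting without oridonin 2 and 3.

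RAB6B, the brain-enriched paralog of RAB6A, was called higher. It had 1.0, 1.1 and 1.2 CPM in DMSO and 2.23, 2.01 and 1.56 CPM in oridonin, and the groups did not overlap (log2 fold change 0.80 ± 0.21, adjusted p = 0.00614). SRPRB, at up to 76.6 CPM, overlaps it on the opposite strand, so its few reads are uncertain, and limma on log2 FPKM did not call it. RAB6B made up 0.311% of the RAB6 FPKM in DMSO and 0.775% in oridonin. RAB18, which sits on the ER and lipid droplets, rose from 58.4, 62.0 and 54.6 CPM to 72.8, 71.4 and 70.6 CPM (0.30 ± 0.06, adjusted p = 0.000474). RAB1A, in spite of groups that lay apart, was not called (0.11 ± 0.05, adjusted p = 0.0652), and neither were RAB1B, RAB2A, RAB2B, RAB30, RAB36 and RAB43.

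The RAB40 proteins carry a SOCS box and serve as adaptors of the CUL5 ubiquitin ligase. RAB40B stood at 6.01, 6.29 and 7.56 CPM in DMSO and at 8.29, 8.28 and 8.58 CPM in oridonin (log2 fold change 0.33 ± 0.11, adjusted p = 0.0190), without overlap, a call lost without DMSO 1, DMSO 2 or oridonin 3. RAB40C was not called (-0.05 ± 0.08, adjusted p = 0.639). Apart from RAB3A and RAB6B, the members RAB14, RAB23, RAB24 and RAB2B overlap a tested gene that is at least as abundant, and their values, none of them called, are uncertain too.

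Genes that load, inactivate, modify or read RAB proteins were taken from 8 lists of 226 symbols, of which 203 were tested. Over all lists 55 were called higher and 31 lower, together 42.4% of the tested genes against 41.9% of all tested genes. Higher calls were 27.1% against 20.6% and lower calls 15.3% against 21.3%. In the setting without oridonin 2 and 3 the total of 86 dropped to 45. Of 13 genes for prenylation and recycling of RAB proteins, 2 rose and 3 fell. RABIF, a RAB chaperone, rose from 13.1 ± 1.0 to 16.9 ± 0.711 CPM (SD, n = 3; change on the log2 scale 0.36 ± 0.08). RABGGTB, the beta subunit of the geranylgeranyl transferase that prenylates RABs, fell from 124 ± 1.60 to 103 ± 2.63 CPM (-0.28 ± 0.05), and the methyltransferase ICMT from 123 ± 4.59 to 102 ± 4.10 CPM (-0.27 ± 0.05).

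Of 35 tested exchange factors 9 rose and 7 fell, with 4 lower without DMSO 3, oridonin 1 or oridonin 2. RIN2, which activates RAB5, rose from 9.85 ± 0.418 to 15.1 ± 0.669 CPM (SD, n = 3; change on the log2 scale 0.62 ± 0.08). RAB3IP, which in spite of its name activates RAB8, fell from 17.8 ± 0.426 to 12.6 ± 1.40 CPM (-0.50 ± 0.09), and SBF2 changed by -0.30 ± 0.06. Of 39 tested GAPs 7 rose and 6 fell. The higher calls were 3 without oridonin 2 and 4 without DMSO 2 or oridonin 1. TBC1D8 rose from 103 ± 1.46 to 146 ± 4.18 CPM (0.50 ± 0.05), although the more abundant RPL31 overlaps it on the opposite strand. TBC1D1 and TBC1D4, GAPs that act on RAB10, fell by 0.38 and 0.29 on the log2 scale. For the regulators of RAB3 itself, chosen with their values known, MADD, an exchange factor, was called higher (0.19 ± 0.05), while the GAP subunits RAB3GAP1 (-0.09 ± 0.06) and RAB3GAP2 (0.01 ± 0.06) were not called.

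The list of RAB3 and RAB27 effectors and granule docking factors held 19 genes. Only 9 had enough counts to be tested, and the 10 others could not be assessed. A gene that is high only after treatment passes the filter through that group, so the 9 do not stand for the list. Of these 8 were called higher and 1 lower, where 20.6% and 21.3% of all tested genes were. RIMS3, a small member of the RIM family of vesicle-docking proteins, rose from 12.8, 10.7 and 10.3 CPM to 17.3, 15.7 and 17.0 CPM (log2 fold change 0.57 ± 0.09, adjusted p = 8.49e-05). SYTL3, a synaptotagmin-like RAB27 effector, rose from 0.775, 1.40 and 1.28 CPM to 2.67, 2.60 and 2.55 CPM (1.15 ± 0.21, adjusted p = 0.000259). UNC13B, a vesicle-priming factor, rose from 44.0, 44.6 and 48.2 CPM to 59.3, 55.7 and 55.2 CPM (0.31 ± 0.06, adjusted p = 0.000361).

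UNC13D, the priming factor of cytotoxic granules, fell from 112 ± 9.01 to 90.9 ± 9.65 CPM (SD, n = 3; change on the log2 scale -0.30 ± 0.08, adjusted p = 0.00556). MLPH, which links RAB27A to myosin, was at 0, 0.105 and 0.110 CPM in DMSO and stood at 0.439, 0.584 and 0.496 CPM in oridonin. Like the sum of the gut epithelial genes it was lowest in DMSO 1, and the part of other cells was not tested. SYTL4, also called higher (0.53 ± 0.18), is overlapped on the opposite strand by SRPX2, at up to 2.39 CPM against 2.20 CPM. SRPX2 was itself called higher (0.98), so the value of SYTL4 is uncertain. The list gave 4 higher with limma on log2 FPKM, and 4 higher in the setting without oridonin 2 and 3.

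**Figure D5:**
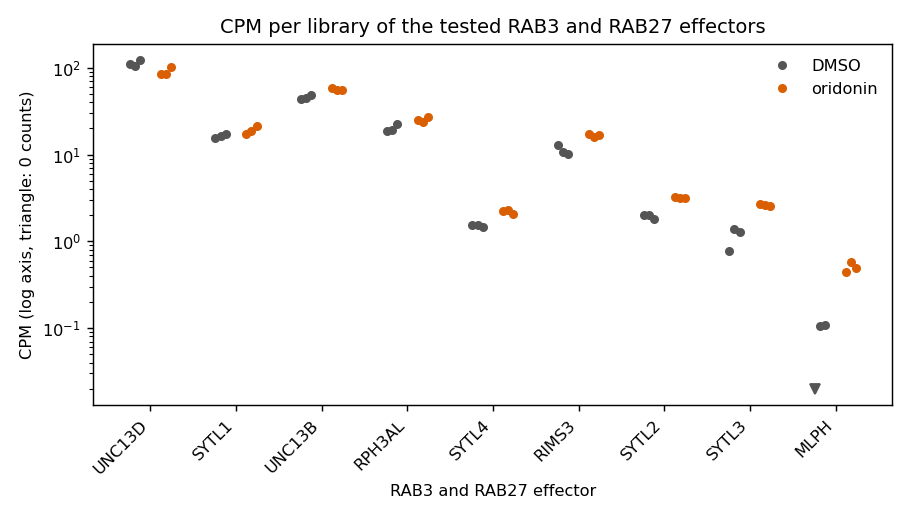
CPM in each library of the 9 tested genes from the list of RAB3 and RAB27 effectors and granule docking factors (log axis, a triangle marks 0 counts). Not all 9 are effectors of these RABs. UNC13D is lower in every oridonin library than in any DMSO library, and the other 8 are higher, MLPH at under 1 CPM.

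Of 41 tested genes on the list of endosomal and recycling RAB effectors 13 rose and 6 fell. Not every gene on it is an effector. PPM1H, for example, is a phosphatase that removes phosphate from RAB proteins. Its level fell from 97.2, 92.1 and 87.5 CPM to 50.3, 51.4 and 50.7 CPM (log2 fold change -0.86 ± 0.05, adjusted p = 2.48e-09). PLEKHM1, a RAB7 effector in fusion with lysosomes, rose from 37.8, 36.1 and 43.3 CPM to 76.6, 73.6 and 81.6 CPM (0.98 ± 0.07, adjusted p = 7.49e-09). The groups were far apart for both. MICAL1, which binds RABs and oxidises actin, changed by 0.69 ± 0.07, and RAB11FIP4, a RAB11 effector, by -0.50 ± 0.05.

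Of 32 Golgi effectors and tethers tested 5 rose and 4 fell, with 2 lower without oridonin 3 and 7 lower without DMSO 3. BICD1, an adaptor between RAB6 and dynein, rose from 7.94 ± 0.882 to 13.5 ± 0.296 CPM (SD, n = 3; change on the log2 scale 0.76 ± 0.09), and BICD2 and TRAPPC3 changed by 0.28 ± 0.05 and 0.31 ± 0.05. TRAPPC3 is overlapped on the opposite strand by MAP7D1, which is more abundant and was itself called higher (0.47), so its value is uncertain. The Golgi structural proteins GORASP2 and GOLGB1 changed by -0.21 ± 0.05 and -0.30 ± 0.08. Of 29 tested exocyst and SNARE genes 11 rose and 2 fell, with 1 lower without DMSO 2. VAMP8, a SNARE of exocytosis and of autophagosome fusion, rose from 42.1 ± 2.55 to 60.8 ± 2.97 CPM (0.53 ± 0.06), and STX4, a SNARE of the plasma membrane, from 45.6 ± 1.51 to 60.1 ± 0.208 CPM (0.40 ± 0.05). STX1A was called higher (0.70 ± 0.10), with the more abundant BUD23 on its opposite strand, and EXOC6 (-0.40 ± 0.08) and STX2 (-0.24 ± 0.07) lower.

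Of 5 tested RAB-like genes RABL3 and RABL2B fell, by 0.26 and 0.27 on the log2 scale. The groups of RABL2B overlap in CPM, and RABL3 shares its place with GTF2E1, a more abundant gene on the opposite strand. Of the 2 calls 1 was left without DMSO 1, DMSO 2, oridonin 1 or oridonin 2, and both were lost with total counts and in the setting without oridonin 2 and 3. The 13 other genes with RAB symbols have no row in the FPKM table and were scarce. RAB3C and RAB39A had no count, and the highest total over the 6 libraries was 23 counts, for RAB39B. RAB39B had 7, 4 and 7 counts in DMSO and 0, 3 and 2 counts in oridonin, RAB34 had 21 in all and RAB4B 17, too few to test.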

How the data were processed

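The raw counts per gene and the log2 FPKM values were used as deposited by the authors, and the submitters' processing notes name build hg38 and DESeq2 1.10.1. Neither the aligner nor the counter or its strand setting is given in the sources used here. The 51 members and all gene lists were chosen with earlier results of these data known, and the plasma cell and gut epithelial lists, with the setting that leaves out oridonin 2 and 3, after seeing the data. The test on counts was edgeR's quasi-likelihood test (version 4.0.16 in R 4.3.3, filterByExpr, TMM scaling, robust fit, treatment as the only term), with Benjamini-Hochberg adjustment at 0.05 over 15116 genes. The tested genes held 99.888 to 99.922% of a library's counts. CPM use TMM factors. SE, the standard error of a fitted change, is the size of that change over the square root of F, and errors after a mean are SDs over 3 libraries. The procedure was tested on simulated data. Alternatives were DESeq2 1.42.0, its size factors, total counts, no filter, limma 3.58.1 on log2 FPKM, a replicate block and leaving out each library. Genes named are the 10 highest and 10 lowest called members that reach 1 CPM in either group, the RAB3 and RAB27 genes, the 5 members highest in FPKM in DMSO and, per partner list, up to 3 called genes with the smallest p and up to 2 in the rarer direction. Other genes named were chosen with their values known. Some genes taken by the rule are not reported here. Promoter sequences are from RefSeq, and gene overlaps and neighbours from GENCODE on hg38. No 2 libraries of a group agreed within sampling noise, so none was counted as a repeat.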

Additional observations from a re-analysis of the deposited data

How the results depend on the processing

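Of the 26 called members, 13 were called in the same direction in all 13 other settings, 13 were not called in 1 or more settings, and none of the 26 reversed. Leaving out 1 library gave 10 (without DMSO 1) to 19 members called higher. Without oridonin 2 and 3, chosen after seeing the data, 16 members were called, 11 higher and 5 lower, against 3579 of all genes, 1593 higher and 1986 lower, and 45 regulators and partners. Scaling to total counts moved the median log2 fold change of the members to 0.12. With a minimum change of 1.5-fold and the scaling of the main text, 7 members were called, and 6 with total counts. Deviations of same-numbered libraries correlated at 0.19, 0.065 and 0.17, and those of differently numbered libraries at -0.16 to 0.0073. The labels name no batch, and whether a replicate number marks a shared one was not tested. With the replicate block 31 members were called, including the 26, and lower calls went from 6 to 10 among the GAPs and from 4 to 9 among the Golgi effectors. The 5 members that the block added were RAB11B, called lower, and RAB1A, RAB23, RAB27A and RAB35, called higher. Each of them was also called in at least 1 further setting. The 12 members that changed sign in any setting were all uncalled, between -0.23 and 0.02 in the main setting. With DESeq2, RAB24 was at -0.00016 and RAB8B at -0.0035, and with its size factors at -0.0038 and -0.0031. With limma on log2 FPKM, RAB1B was at 0.0067, RAB3A at 0.010 and RAB43 at 0.023. With no filter RAB1B was at 0.0051 and RAB3A at 0.0068. With total counts RAB13 was at 0.046, RAB1B at 0.068, RAB3A at 0.072, RAB40C at 0.031 and RAB43 at 0.051. Without oridonin 2 and 3, RAB13 was at 0.015, RAB30 at -0.087, RAB37 at 0.0098, RAB3A at 0.041, RAB43 at 0.066 and RAB8B at -0.011. Leaving out 1 library gave -0.083 to 0.020 for RAB13, -0.0020 to 0.049 for RAB14, -0.090 to 0.058 for RAB1B, -0.10 to 0.066 for RAB24, -0.021 to 0.023 for RAB2A and -0.041 to 0.061 for RAB30. It gave -0.30 to 0.00089 for RAB36, -0.50 to 0.17 for RAB37, -0.060 to 0.062 for RAB3A, -0.11 to 0.034 for RAB40C, -0.20 to 0.060 for RAB43 and -0.046 to 0.043 for RAB8B. The cause of these changes was not tested. Fits that leave oridonin with 1 library assume that it varies like DMSO. Depth limits the values of RAB7B in DMSO, with at most 5 counts in a library, and of RAB25, with at most 14.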
